A study of Mus musculus with 6 samples.

Results

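The replication-dependent histone genes were examined in 3T3-L1 adipocytes after RBMS1 knockdown. Members were chosen by symbol, as every row of the count table whose name starts with Hist1h, Hist2h, Hist3h or Hist4h. The rule found 71 rows of 45706, carrying 70 symbols because Hist2h2bb stands for 2 gene IDs. By histone type they were 6 H1, 20 H2A, 20 H2B, 12 H3 and 13 H4 rows. By locus, 56 carried the Hist1 prefix, 11 the Hist2 prefix, 3 the Hist3 prefix and 1 the Hist4 prefix.

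3T3-L1 is a mouse fibroblast line that becomes adipocyte-like after hormonal induction. The scrambled control samples carried a scrambled shRNA in otherwise wild-type cells (n = 3), and the RBMS1 knockdown samples carried an shRNA against Rbms1, which encodes an RNA-binding protein (n = 3). Both lines received the same adipogenic cocktail of IBMX, insulin, dexamethasone and rosiglitazone and were collected on day 7 of differentiation. The shRNAs were delivered by lentivirus with puromycin selection, so each group is a stably transduced line, and the study calls the 3 samples of a group biological replicates without saying whether they came from separate transductions.

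Core histones H2A, H2B, H3 and H4 form the octamer around which DNA is wrapped, and H1 binds the linker between octamers. The replication-dependent genes supply histones while DNA is copied. Their mRNAs are intronless and normally end in a short stem-loop instead of a poly(A) tail, and this stem-loop is bound by the stem-loop binding protein SLBP, which guides cleavage, translation and decay of the transcript. Cells that have left the cycle, such as mature adipocytes, rely more on replacement variants that are made throughout the cycle from polyadenylated mRNAs. Because the libraries were made from ribosomal RNA-depleted total RNA with random priming, histone mRNAs without a poly(A) tail could be sequenced.

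The stem-loop is the sequence feature that defines this gene class and is shown for 7 members that differ in histone type or in the form of the stem-loop. A motif of 16 bases, GGNNNTNTNNANNNCC with a fully paired stem, was searched for after the stop codon on the sense strand of the annotated transcripts (GENCODE M21, GRCm38). Capitals mark the stem-loop and lower case marks 5 bases on either side, all 5′ to 3′.
Hist1h1c (chr13:23739507-23739532, plus strand): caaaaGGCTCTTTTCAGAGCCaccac
Hist2h2aa2 (chr3:96239779-96239804, minus strand): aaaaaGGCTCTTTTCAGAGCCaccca
Hist1h2be (chr13:23585526-23585551, minus strand): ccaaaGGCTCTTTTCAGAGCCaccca
Hist1h3e (chr13:23561898-23561923, minus strand): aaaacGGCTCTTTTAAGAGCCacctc
Hist1h4c (chr13:23698084-23698109, minus strand): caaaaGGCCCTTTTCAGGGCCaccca
Hist1h4i (chr13:22040961-22040986, minus strand): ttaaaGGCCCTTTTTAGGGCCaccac
Hist1h4j (chr13:21735432-21735457, plus strand): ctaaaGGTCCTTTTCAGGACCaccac

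The motif was found in 42 of 65 members annotated as protein-coding, 21 to 58 bases after the stop codon. Of the 23 coding members without it, 15 have an annotated transcript that ends within 2 bases of the stop, so that the window does not cover the place. The other 8 have annotated transcripts that run further, and Hist1h2bc, with 10.6% of the histone RNA, is 1 of them. Of the 42 stem-loops, 24 had the sequence printed for Hist1h1c and 6 that printed for Hist1h3e, and none of these belonged to H4. The H4 genes used other stems: 7 shared the sequence of Hist1h4c, 2 that of Hist1h4i and 2 that of Hist1h4j. The 1 remaining form was that of Hist2h2ac. Within the last 300 bases, the motif occurred in 25 of 65 coding members (38.5%) and in 0.256% of all 21901 coding genes. The annotated transcripts of 21 members ran more than 100 bases past the stem-loop, up to 4884 bases in Hist1h1d, while the other 21 ended at most 100 bases after it.

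Total estimated counts ranged from 3142695 to 11073098 per sample, with scrambled control replicate 2 the shallowest and 43.1% of its counts in genes derived from ribosomal RNA (8.13% to 17.8% in the other 5 samples). Levels are given as CPM, read counts normalized to a TMM-adjusted library size. Rbms1 itself had 113, 102 and 99.6 CPM in the scrambled control and 49.2, 61.4 and 84.0 CPM in the knockdown, a log2 fold change of -0.69 with a standard error of 0.20 that did not reach an adjusted p of 0.1 (0.185 by edgeR, adjusted by Benjamini-Hochberg) and did so without knockdown replicate 3 (log2 fold change -0.92, adjusted p = 0.0708). All 8 adipocyte markers were detected. Their summed level was 20494 to 23816 CPM in the control and 10747 to 19159 CPM in the knockdown, without overlap. All 8 had a log2 fold change below 0 (median -0.42), beside 49.6% of all tested genes. Of the 8, 2 were lower without overlap, beside 9.55% of all tested genes. By edgeR or limma-voom 0 were called and by DESeq2 1, and 1 had an unadjusted p under 0.05 by edgeR. The part of this marker difference in the histone values was not tested. The 8 fibroblast or preadipocyte markers summed to 6047 to 7079 CPM in the control and 3204 to 6719 CPM in the knockdown. Of 7 tested, 5 had a log2 fold change below 0 and 2 were lower without overlap. By edgeR or limma-voom 0 were called and by DESeq2 1, and 2 had an unadjusted p under 0.05 by edgeR. Of 6 macrophage markers, 3 had no count in any sample and the sum was at most 3.39 CPM.

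Histone copies resemble each other, and this limits what a single row measures. Across the tested members a median of 56.3% of all 31-base stretches also occurred in another annotated gene, from 2.31% in Hist2h4 to 100% in Hist2h2aa2. Of the member values above 0 that were tested, 89.3% were not whole numbers (tolerance 1e-06), against 19.9% in the other tested genes, as arises where reads that match several genes are divided between them. Members that shared at least 50% of the 31-base stretches of the smaller one were therefore also summed as copy families.

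Histone RNA was present in every sample at a modest level that varied widely within each group. The 71 rows summed to 1097, 804.5 and 725 CPM in scrambled control replicates 1, 2 and 3, and to 491, 676 and 772 CPM in RBMS1 knockdown replicates 1, 2 and 3. Control replicate 1 was the highest sample and knockdown replicate 1 the lowest, while knockdown replicate 3 lay above control replicate 3, so the groups overlapped. The mean was 875 ± 196 CPM (SD, n = 3) in the control and 647 ± 143 CPM in the knockdown, a log2 ratio of -0.44 that became -0.24 without control replicate 1 and -0.26 without knockdown replicate 1. In RNA from bulk cultures, fewer cells in S phase and less histone mRNA per cell cannot be told apart.

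**Figure D1:**
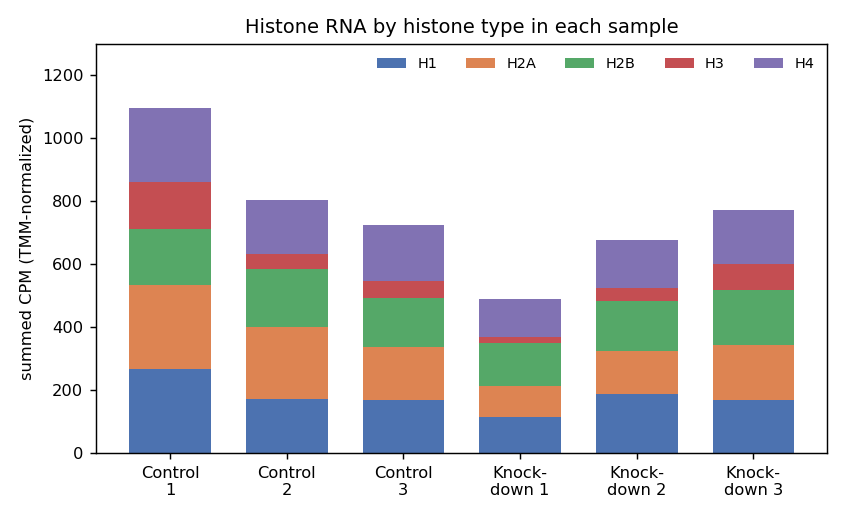
Stacked bars give the summed CPM (TMM-normalized) of the H1, H2A, H2B, H3 and H4 genes in each of the 6 samples. Totals run from 491 CPM in knockdown replicate 1 to 1097 CPM in control replicate 1, and the H3 segment has the widest fold span, 7.72-fold, while in CPM the H2A and H1 segments span more.

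H1, H2A, H2B and H4 genes contributed similar shares of the histone RNA, at 23.7%, 23.5%, 21.7% and 22.4% of the mean over the 6 samples, and H3 genes gave 8.71%. The linker histone gene Hist1h1c alone gave 18.6%, and the core histone genes Hist2h2aa2 and Hist1h2bc gave 11.04% and 10.6%. Per kilobase of annotated exon, the highest mean levels were those of Hist2h2aa2 at 159 CPM per kb, Hist1h2al at 148 CPM per kb and Hist1h1c at 90.8 CPM per kb. Annotated length enters this scale directly, and the transcripts that run far past the stem-loop are lowered by it. The 5 rows without a count in any sample were Hist1h2aa, Hist1h2ba, Hist1h2aj, Hist3h2ba and Hist1h4m. A count of 0 allows up to 3 counts, or 0.220 to 1.49 CPM in a single sample, and this limit covers counting error only. The H1 gene of the male germ line, Hist1h1t, had 2 counts in all.

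After RBMS1 knockdown, 1 histone gene passed the test. Of the 71 rows, 43 passed the filter on low counts, and Hist2h2aa2 was the 1 called at an adjusted p of 0.1 or less, lower in the knockdown (edgeR quasi-likelihood test with Benjamini-Hochberg adjustment). That is 2.33% of the tested members beside 1.22% of all 11440 tested genes (0.909% when lower genes alone are counted), so the share of called members was near the background. No member had an adjusted p under 0.05, beside 0.463% of all tested genes. The count of members with an unadjusted p under 0.05 was 6, which is 14% beside 12.4% of all tested genes. All 6 were lower in the knockdown, beside 6.98% of all tested genes that were lower with such a p.

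The sign of the changes leaned to lower levels but depended on 1 library. The log2 fold change was below 0 in 33 of 43 tested members (76.7%), beside 49.6% of all tested genes, with a median of -0.31 beside 0.00 over all. Without scrambled control replicate 1, 17 of 43 were below 0 and the median was 0.05. Leaving out RBMS1 knockdown replicate 1 weakened the lean, with 30 of 48 below 0 and a median of -0.11. Correcting each library for GC content and transcript length left 24 of 43 below 0 with a median of -0.18. Tested members had a median annotated length of 620 bases and a GC content of 55.6%, beside 4537 bases and 49.4% in the other tested genes. Scaling by library sizes alone raised the median of all genes to 0.37 and that of the members to 0.06.

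**Figure D2:**
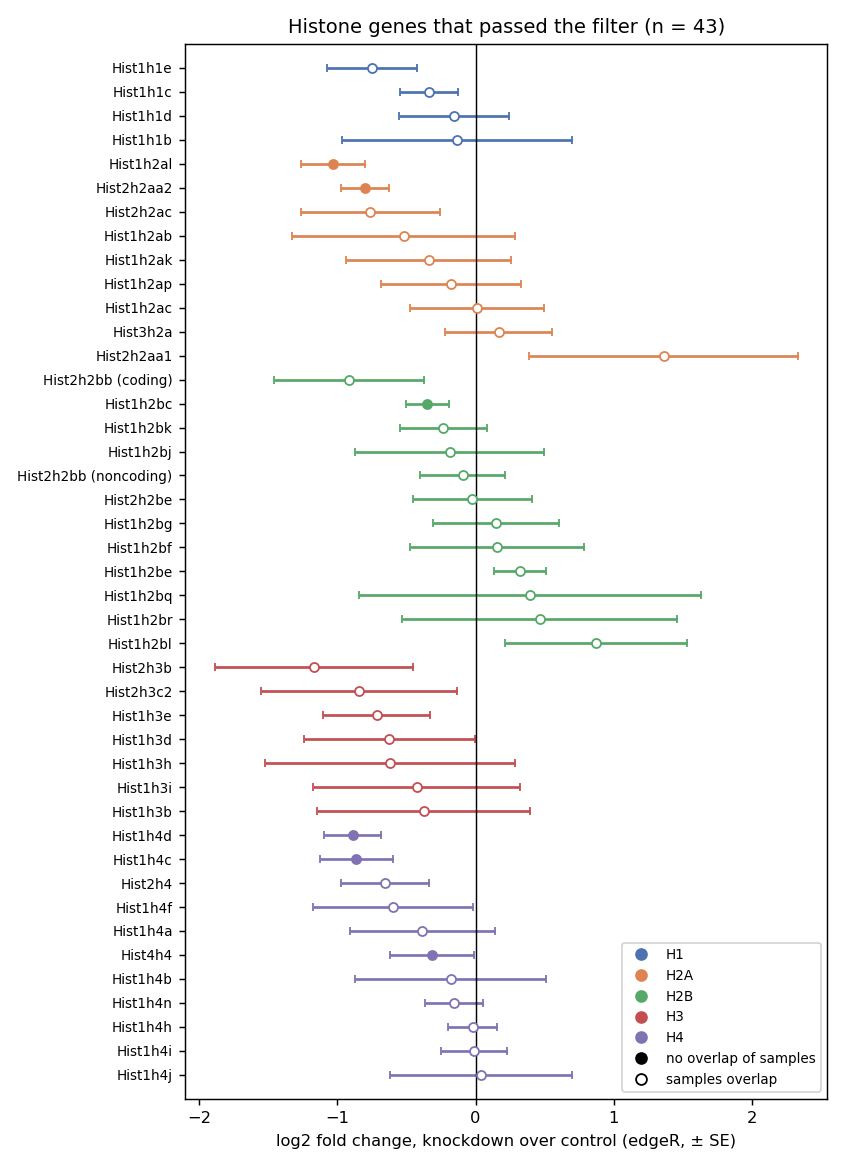
Points give the log2 fold change of the 43 tested histone genes, RBMS1 knockdown over scrambled control, with the edgeR standard error as a bar. Filled points mark the 6 genes whose knockdown samples all lay below the controls, and 33 points lie left of 0.

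In 6 of 43 tested members every knockdown sample lay below every control sample, and in 0 every one lay above. Of all tested genes, 8.96% were higher without overlap. The 6 lower members are 14% beside 9.55% of all tested genes that were lower without overlap, and 14% beside 18.5% that did not overlap in either direction. The 6 were Hist2h2aa2, Hist1h2al, Hist1h4d, Hist1h4c, Hist1h2bc and Hist4h4. Permuting 3 and 3 samples exactly gives no p smaller than 0.1, so single genes were tested by the model alone.

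**Figure D3:**
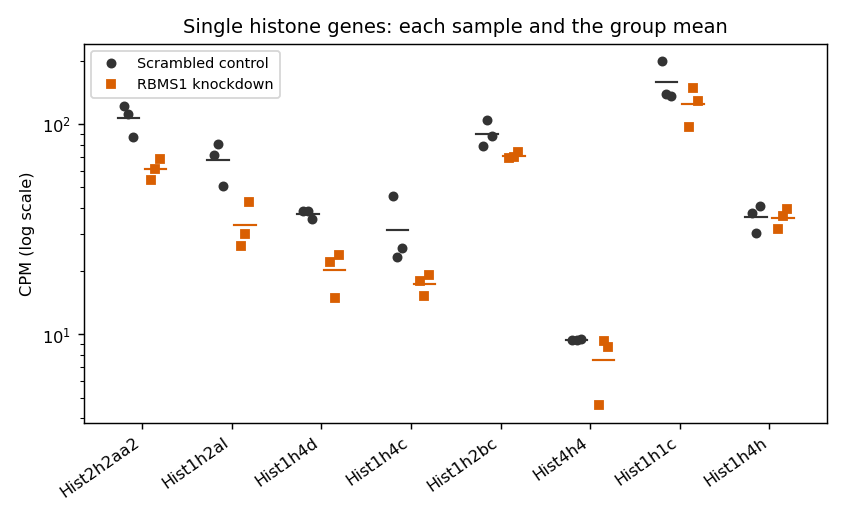
CPM on a log axis for 8 histone genes, with each scrambled control sample as a circle, each RBMS1 knockdown sample as a square and the group mean as a line. The first 6 genes do not overlap between the groups, while Hist1h1c and Hist1h4h do.

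Among H2A genes, the 2 members without overlap between the groups each share most of their sequence with Hist2h2aa1. Hist2h2aa2 (ENSMUSG00000063954, chr3:96239749-96240276, GRCm38) had 121.5, 112 and 86.9 CPM in the scrambled control and 54.2, 60.9 and 68.6 CPM in the knockdown. Every knockdown sample was below every control, and the log2 fold change was -0.80 with a standard error of 0.17 (adjusted p = 0.0967, edgeR with Benjamini-Hochberg adjustment). Its adjusted p ranged from 0.0143 to 0.439 over the alternative settings. In DESeq2 it was called with Hist1h2al and Hist1h4d, 3 of 56 tested members (5.36%) beside 3.2% of all genes, while limma-voom called 0 of 43 beside 1.01% of all genes. With no filter on low counts the same 3 were called, beside 1.38% of all genes.

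Hist1h2al (ENSMUSG00000091383, chr13:51202727-51203065) lies away from the histone clusters and is annotated as a processed pseudogene. It had 71.5, 80.4 and 50.9 CPM in the control and 26.5, 29.9 and 42.7 CPM in the knockdown, again without overlap. Its log2 fold change of -1.03 with a standard error of 0.23 did not reach the threshold (adjusted p = 0.109, edgeR), and adjusted p was 0.0125 in DESeq2 and up to 0.367 in another setting. Of its 309 stretches of 31 bases, 247 occur in Hist2h2aa1, and all 498 of those of Hist2h2aa2 occur in Hist2h2aa1. Hist1h2al and Hist2h2aa2 share 247 stretches with each other, 79.9% of those of the first and 49.6% of those of the second.

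Hist2h2aa1, which lies beside Hist2h2aa2 on the opposite strand and ends in the same stem-loop with the same flanks, went the other way as a row. It had 1.92, 1.99 and 1.89 CPM in the control and 0, 6.90 and 7.71 CPM in the knockdown. Knockdown replicate 1 was thus the lowest sample and the other 2 the highest, and the log2 fold change was 1.36 with a standard error of 0.97 (adjusted p = 0.621, edgeR). Without knockdown replicate 1 this row was called as higher (log2 fold change 1.92, adjusted p = 0.0294, edgeR). The same setting called Hist2h2aa2, Hist1h2al and Hist1h4d as lower, 4 of 48 tested members beside 5.94% of all genes.

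Summed with Hist2h2ac, which encodes another H2A and also belongs to this copy family, the 4 rows gave 202, 199 and 143 CPM in the control and 81.8, 101 and 122 CPM in the knockdown. The groups did not overlap, and the log2 ratio of the means was -0.83. The ratio lay between -0.98 and -0.69 when any 1 sample was left out and was -0.52 after the correction for GC content and length, each time without overlap. With library sizes alone it was -0.43 and the groups overlapped. Hist2h2ac by itself had 6.73, 3.97 and 2.92 CPM against 1.15, 3.39 and 3.45 CPM, which overlap.

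The 13 H2A copies of the Hist1 locus formed a family of their own and gave 54.5, 19.9 and 18.1 CPM in the control and 11.6, 23.8 and 38.8 CPM in the knockdown. Control replicate 1 and knockdown replicate 3 were the high samples and the groups overlapped. The most abundant of them, Hist1h2ap, had a log2 fold change of -0.18 with a standard error of 0.51, and the 3 others tested had -0.52 (Hist1h2ab), -0.34 (Hist1h2ak) and 0.01 (Hist1h2ac) with standard errors of 0.80, 0.60 and 0.49. With 1 sample left out these ranged from -1.15 to 0.0064 for Hist1h2ab, -0.71 to 0.33 for Hist1h2ak and -0.30 to 0.36 for Hist1h2ac, and with limma-voom Hist1h2ab had 0.21. Hist3h2a, the 1 tested H2A gene outside both families, had a log2 fold change of 0.17.

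Among H4 genes, 10 of 11 tested had a log2 fold change below 0. Hist1h4b, Hist1h4h, Hist1h4i and Hist1h4n changed sign with the GC content and length correction. None of the 11 was called by edgeR or limma-voom and 1 was by DESeq2, and unadjusted p was under 0.05 for 2, Hist1h4d and Hist1h4c. Hist1h4d (ENSMUSG00000061482, chr13:23581598-23582735) had 38.5, 38.7 and 35.4 CPM in the control and 22.0, 14.8 and 23.9 CPM in the knockdown. The control samples were close together and all above the knockdown, with a log2 fold change of -0.89 and a standard error of 0.21 (adjusted p = 0.115, edgeR). Adjusted p was 0.0401 in DESeq2 and up to 0.397 over the alternatives. Of its 31-base stretches, 14.7% occur in another gene, beside 100% for Hist2h2aa2.

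Hist1h4c (ENSMUSG00000060678, chr13:23697635-23698454) had 45.5, 23.3 and 25.8 CPM in the control and 18.0, 15.2 and 19.2 CPM in the knockdown. The groups did not overlap, although control replicate 1 stood far above the other 2 controls (log2 fold change -0.86, standard error 0.26, adjusted p = 0.210, edgeR). Without that sample the log2 fold change was -0.49. Hist4h4, the single member of the Hist4 locus, had 9.46, 9.43 and 9.46 CPM in the control and 4.60, 9.35 and 8.74 CPM in the knockdown. The gap to the controls was small in 2 of the 3 knockdown samples, with a log2 fold change of -0.31 and a standard error of 0.30 (adjusted p = 0.733, edgeR).

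The H4 gene with the highest mean CPM, Hist1h4h, was close to 0 in its fold change. It had 38.0, 30.3 and 40.8 CPM in the control and 31.6, 36.7 and 39.4 CPM in the knockdown, with a log2 fold change of -0.02 and a standard error of 0.18. The groups overlapped throughout. H4 genes as a whole gave 234, 170 and 176 CPM in the control and 122, 151 and 171 CPM in the knockdown, and knockdown replicate 3 lay just above control replicate 2. The log2 ratio of the means was -0.39. It was -0.22 without control replicate 1, and also -0.22 after the correction for GC content and length.

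H2B genes were the least variable type and were split evenly, with 6 of 12 tested members below 0 and a median log2 fold change of 0.06. Their sum was 180, 183 and 156 CPM in the control and 135, 160 and 175 CPM in the knockdown, a 1.36-fold span over the 6 samples. Hist1h2bc (ENSMUSG00000018102, chr13:23684199-23692908) gave the largest part, with 78.9, 104 and 87.7 CPM in the control and 68.7, 70.1 and 73.6 CPM in the knockdown. The knockdown samples were all below the controls, by a log2 fold change of -0.35 with a standard error of 0.15 (adjusted p = 0.396, edgeR). In the annotated transcript of Hist1h2bc no stem-loop was found in the 742 bases after the stop codon. The gene is annotated with 1156 exon bases over a wider span, unlike the intronless genes of this class.

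Hist1h2be was higher on average in the knockdown. It had 24.4, 24.8 and 28.4 CPM in the control and 26.3, 32.8 and 37.7 CPM in the knockdown, with a log2 fold change of 0.32 and a standard error of 0.19 (adjusted p = 0.530, edgeR). The groups overlapped through knockdown replicate 1. Its annotated gene overlaps that of Hist1h1e on the same strand, so reads in the shared part cannot be assigned to either with certainty. Hist1h2bk, the other H2B gene among the 3 most abundant, had a log2 fold change of -0.23 with a standard error of 0.32.

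The H2B rows with the highest fold changes were low and rested on copies. Hist1h2bl had 4.33, 1.99 and 0.516 CPM against 4.31, 2.22 and 6.24 CPM, and its log2 fold change was 0.87 with a standard error of 0.66. Hist1h2bq had 6.73, 0.993 and 0 CPM against 6.18, 0 and 4.99 CPM, and Hist1h2br had 2.40, 4.47 and 6.02 CPM against 0, 13.1 and 4.48 CPM. Where one of this pair was at 0 the other was not, and 98.3% of the 31-base stretches of Hist1h2bq occur in Hist1h2br. Hist2h2bb as annotated for coding had one of the 5 lowest log2 fold changes, -0.92 with a standard error of 0.54, and its groups overlapped. Without control replicate 1 it was -0.082.

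All 4 tested H1 genes had a log2 fold change below 0. Of these, 0 were called by edgeR, DESeq2 or limma-voom, and unadjusted p was under 0.05 for 1, Hist1h1e. Hist1h1c (ENSMUSG00000036181, chr13:23738808-23740367), the most abundant histone gene in CPM, had 199, 139 and 136 CPM in the control and 97.5, 149 and 129 CPM in the knockdown. Knockdown replicate 2 lay above controls 2 and 3, so the groups overlapped, with a log2 fold change of -0.34 and a standard error of 0.21 (adjusted p = 0.560, edgeR). Hist1h1e had 38.6, 24.3 and 19.8 CPM against 9.78, 19.6 and 19.8 CPM, with a log2 fold change of -0.75 and a standard error of 0.33 (adjusted p = 0.391, edgeR), and -0.41 without control replicate 1. Hist1h1d had a log2 fold change of -0.16 with a standard error of 0.40, which became 0.46 without control replicate 1.

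H3 genes had the widest fold span of the 5 types. Their sum was 150, 50.1 and 54.0 CPM in the control and 19.4, 41.8 and 82.6 CPM in the knockdown, a 7.72-fold span over the 6 samples. Within the control the span was 2.99-fold and within the knockdown 4.26-fold, while the log2 ratio of the means was -0.82 and became -0.11 without control replicate 1, -0.43 without knockdown replicate 1 and -1.46 without knockdown replicate 3. All 7 tested H3 genes had a log2 fold change below 0, from -1.17 to -0.37, and 0 of them were free of overlap. None had an unadjusted p under 0.05, and edgeR, DESeq2 and limma-voom called 0.

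Hist2h3b had 32.4, 7.44 and 9.64 CPM in the control and 2.73, 3.27 and 16.003 CPM in the knockdown. Its log2 fold change of -1.17 was the lowest among tested members, with a standard error of 0.72 (adjusted p = 0.552, edgeR), but it was -0.20 without control replicate 1 and -2.47 without knockdown replicate 3. Hist1h3e had 23.2, 22.3 and 10.3 CPM against 6.18, 11.9 and 15.5 CPM, with a log2 fold change of -0.72 and a standard error of 0.39 (adjusted p = 0.496, edgeR). In both genes knockdown replicate 3 lay above at least 1 control.

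In the Hist2 H3 genes a copy was counted in some samples and not in others. Hist2h3c1, whose 31-base stretches all occur elsewhere, had 14.5 CPM in control replicate 3 and no count in the other 5 samples, and did not pass the filter. Its copy Hist2h3c2 had 35.9, 8.44 and 4.82 CPM in the control and 3.02, 10.99 and 13.7 CPM in the knockdown. With Hist2h3b the 3 copies gave 68.3, 15.9 and 28.9 CPM against 5.75, 14.3 and 29.7 CPM. Knockdown replicate 3 was above 2 of the controls, so the family overlapped although its log2 ratio was -1.19. The ratio was -0.43 without control replicate 1, -0.77 without knockdown replicate 1 and -1.91 without knockdown replicate 3, where the groups did not overlap.

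**Figure D4:**
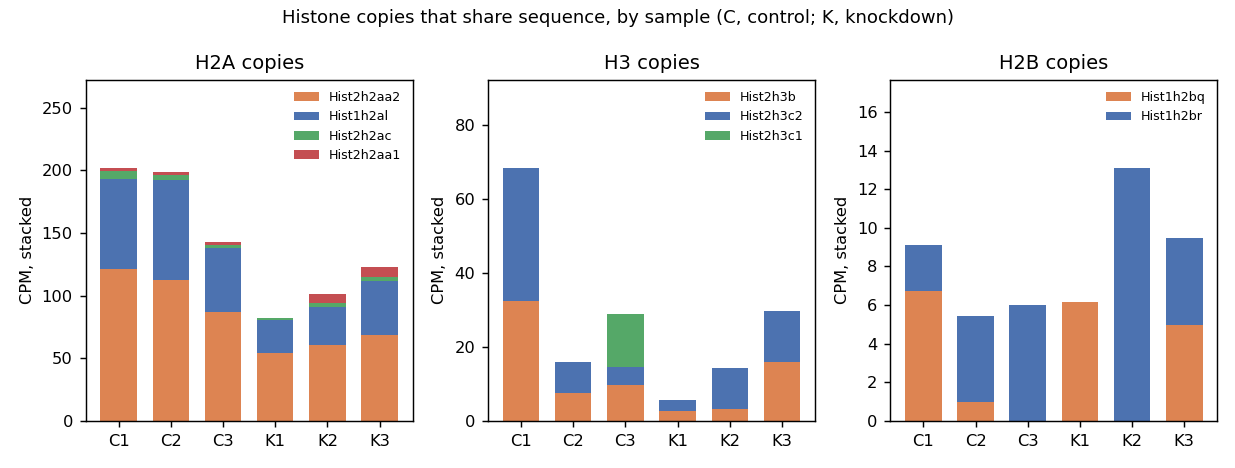
Stacked CPM of histone copies that share sequence in the 3 scrambled control (C1 to C3) and 3 RBMS1 knockdown (K1 to K3) samples, for 4 H2A, 3 H3 and 2 H2B rows. The H2A sums do not overlap (143 to 202 against 81.8 to 122 CPM), while the H3 and H2B sums do, and single copies appear and vanish between samples.

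The 28 rows that did not pass the filter held little of the histone RNA. Of these, 23 had a count in at least 1 sample, and 11 of the 28 were H2A rows. Hist1h2ah reached 5.77 CPM in control replicate 1 and 3.52 CPM in knockdown replicate 3, and was at 0.688 CPM or less in the other 4 samples. Hist1h2ag likewise had its highest values, 4.49 and 2.48 CPM, in control replicates 1 and 2, with 2.42 CPM in knockdown replicate 3. Both encode H2A of the Hist1 locus and were picked as examples after their values were seen. The 28 rows were not tested in the main fit. With no filter on low counts 66 members were tested, and none of the 28 was called. What size of difference could be seen at such low counts was not tested.

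By locus prefix, the Hist2 genes had the lower ratio. Their sum was 250, 171 and 147 CPM in the control and 80.2, 122 and 136 CPM in the knockdown, without overlap and with a log2 ratio of -0.75, which was -0.50 without control replicate 1. The Hist1 genes summed to 830, 613 and 559 CPM against 402, 534 and 615 CPM, which overlap, with a log2 ratio of -0.37, which was -0.18 without control replicate 1 and -0.21 without knockdown replicate 1. The Hist1 sum holds Hist1h2al, which lies outside the cluster, and without that row its ratio was -0.31. That ratio was -0.10 without control replicate 1, -0.15 without knockdown replicate 1 and 0.046 with library sizes alone. The difference between the 2 sums was not tested. The Hist2 sum overlapped with library sizes alone and after each sample's chromosome medians were removed. It includes Hist2h2aa1 and Hist2h2aa2, which together gave 123, 114 and 88.8 CPM against 54.2, 67.8 and 76.3 CPM, without overlap. The 3 Hist2 H3 copies, also part of it, overlapped. Whether Hist2 genes other than the Hist2h2aa copies differ between the groups was not tested.

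Members with a stem-loop were also divided by the length of the annotated tail. Genes with at most 100 bases after the stem-loop summed to 227 ± 46.7 CPM in the control and 170 ± 40.2 CPM in the knockdown (SD, n = 3), a log2 ratio of -0.42. Those with longer annotated tails summed to 408 ± 97.8 CPM and 310 ± 68.0 CPM, a log2 ratio of -0.40. Both sums overlapped between the groups. Without control replicate 1 the ratios were -0.24 and -0.18, and without knockdown replicate 1 they were -0.25 and -0.22. After the correction for GC content and length they were -0.17 and -0.30, and with library sizes alone -0.041 and -0.050, in the same order.

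The replacement histone variants, whose synthesis is not limited to S phase, were read beside these genes. Of 11 listed, 10 passed the filter, 0 were called by edgeR at an adjusted p of 0.1 or less, and 5 lay below 0 with a median log2 fold change of 0.00. None had an unadjusted p under 0.05, and DESeq2 and limma-voom also called 0. H3f3b and H3f3a, which both encode H3.3, had log2 fold changes of -0.42 and 0.02 with standard errors of 0.21 and 0.17. H1f0, a linker histone of differentiated cells, had -0.37 with a standard error of 0.18, and H2afz, which encodes H2A.Z, had 0.18 with 0.25. The macroH2A gene H2afy had a log2 fold change of 0.29, H2afj 0.08, H2afx 0.05 and H2afv -0.01, with standard errors of 0.19 to 0.34. The centromeric H3 gene Cenpa had -1.04 and H2afy2 -0.93, with standard errors of 0.61 and 0.59. The summed level of the variants was 705 to 849 CPM in the control and 580 to 693 CPM in the knockdown, without overlap, but overlapped with library sizes alone, with no filter on low counts and after the correction for GC content and length.

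The balance between H3 genes of the 2 classes moved from sample to sample. On the per-kilobase scale, the 12 H3 members made up 60.8%, 32.2% and 34.6% of the RNA of H3 members plus H3f3a and H3f3b in the control. In the knockdown they made up 24.2%, 30.4% and 51.0%. Control replicate 1 and knockdown replicate 3 had the highest shares, and the groups overlapped.

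The genes for factors that make, process or degrade histone mRNAs had fold changes centred near 0 as 1 mixed list. Of 28 rows tested from the list of histone mRNA processing and transcription factors, 0 were called by edgeR, DESeq2 or limma-voom, and 13 lay below 0 with a median log2 fold change of 0.01. Slbp, which encodes the stem-loop binding protein, had 11.4, 19.4 and 9.98 CPM in the control and 14.2, 12.7 and 13.4 CPM in the knockdown, with a log2 fold change of 0.02 and a standard error of 0.27. Npat, which encodes the coactivator of histone gene transcription, had 0.18 with a standard error of 0.18. Lsm11, which encodes a subunit of the U7 particle, had -0.01 with a standard error of 0.41. The 2 genes with an unadjusted p under 0.05, named after their values were seen, were Upf1, needed for histone mRNA decay, at -0.44, and the uridylyltransferase gene Zcchc11 at 0.56 (adjusted p = 0.255 and 0.207, edgeR).

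Histone chaperones, which carry histones to and from DNA, had a median log2 fold change of 0.01 over 17 tested genes, with 0 called by edgeR, DESeq2 or limma-voom. The 3 with an unadjusted p under 0.05 were named after their values were seen. The S-phase chaperone gene Asf1b had 11.7, 11.9 and 7.23 CPM in the control and 5.46, 4.09 and 4.48 CPM in the knockdown, a log2 fold change of -1.12 with a standard error of 0.30 (adjusted p = 0.155, edgeR). Hira and Rbbp4 had log2 fold changes of 0.61 and 0.43.

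Histone RNA was set beside the cell cycle genes of the same samples. The S-phase list summed to 526, 385 and 427 CPM in the control and 351, 360 and 471 CPM in the knockdown, and the mitosis list to 227, 75.4 and 102 CPM and 42.6, 71.8 and 184 CPM. Both lists and the H3 sum put the 6 samples in 1 order, with control replicate 1 highest, then knockdown replicate 3, control replicates 3 and 2, and knockdown replicates 2 and 1. The other histone types and the sum of all histone rows had other orders. Control replicate 2 came second in the sum of all rows and first in the H2B sum, and knockdown replicate 1 was the lowest sample in each. The S-phase, mitosis and H3 sums overlapped between the groups. This order is a description of 6 samples that share their libraries and scaling, and its part in the histone values was not tested.

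**Figure D5:**
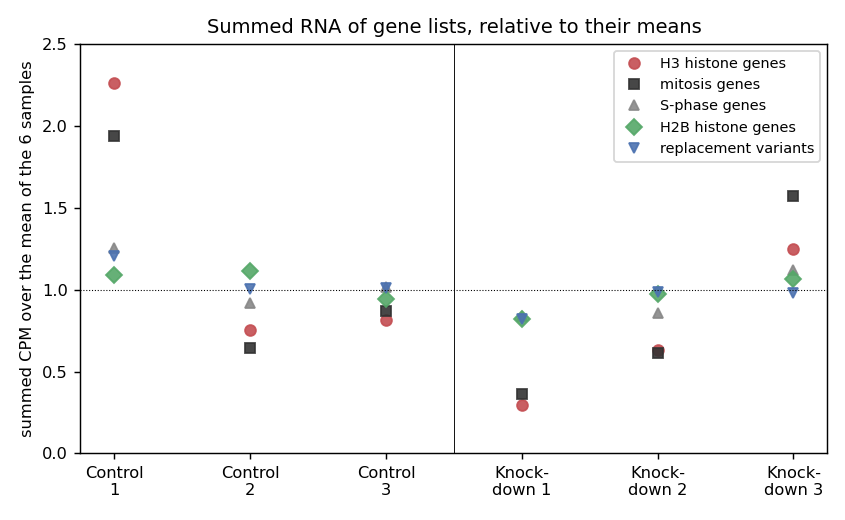
Summed CPM of 5 gene lists in each sample, divided by the list's mean over the 6 samples (dotted line at 1). H3 and mitosis genes spread from 0.293 and 0.363 in knockdown replicate 1 to 2.26 and 1.94 in control replicate 1, while H2B genes and replacement variants stay between 0.819 and 1.21.

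Of 39 tested S-phase genes, 28 had a log2 fold change below 0 (median -0.18), and of 18 mitosis genes, 16 did (median -0.44). Without control replicate 1 these medians were 0.07 and 0.20, and without knockdown replicate 3 they were -0.43 (33 of 39 below 0) and -1.37 (18 of 18). They were -0.30 and -0.68 without control replicate 2, -0.036 and -0.078 without knockdown replicate 1, and -0.073 and -0.19 without knockdown replicate 2. In both lists 0 genes were called by edgeR, DESeq2 or limma-voom. Unadjusted p (edgeR) was under 0.05 for 3 S-phase genes, Gins4, Prim2 and Rfc2, and for 1 mitosis gene, Ccna2, named after their values were seen. Gins4 and Prim2 were lower in the knockdown, with log2 fold changes of -0.73 and -0.78, and Rfc2 was higher, with 0.59. Ccna2 was lower, with -1.62. Ccna2, which encodes cyclin A2, had 19.9, 4.96 and 4.65 CPM against 1.44, 2.10 and 6.02 CPM. Its high sample was again control replicate 1.

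Short structural noncoding RNAs were read as another class of RNAs without poly(A) tails. Of 10 tested, 8 had a log2 fold change below 0, with a median of -0.53, and 0 were called by edgeR, DESeq2 or limma-voom. The median was -0.24 without control replicate 2, -0.31 without knockdown replicate 1, -0.33 without knockdown replicate 3 and -0.21 after the correction for GC content and length. Unadjusted p was under 0.05 for 1 of them, Rpph1, named after its value was seen. Their sum was 15843, 37705 and 26133 CPM in the control and 13342, 29907 and 17640 CPM in the knockdown. This order differed from that of the sum of all histone rows, in which control replicate 1 was highest. Control replicate 2 was the highest sample here, as it was in the H2B sum.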

How the data were processed

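The authors made stranded libraries from total RNA after depletion of ribosomal RNA. Per the submitters' processing notes, Trim Galore 0.6.7, STAR 2.7.10a (GRCm38) and Salmon 1.9.0 were used for trimming, alignment and counting. The authors deposited Salmon's estimated counts per gene, not normalized. The annotation release and the summing of transcripts to genes are not given in the sources used here. Between 3.97% and 7.78% of values per sample were not whole, and all were rounded. The quasi-likelihood test of edgeR 4.0.16 (R 4.3.3; filterByExpr and TMM) was run on condition alone, over all 11440 genes that passed the filter, with Benjamini-Hochberg adjustment, and genes were called where the adjusted p was at most 0.1. The script was tested on simulated counts. P-values measure the spread between the 3 samples of a group.

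Positions, lengths and stem-loops came from GENCODE M21 on GRCm38, which held 69 of the 71 members by gene ID. CPM sums over genes were described without a test. The members and gene lists were chosen with earlier results of these data known. Genes named are called members, the 3 with the highest mean CPM of each type, the 5 highest and 5 lowest fold changes, members without overlap, tested replacement variants, called list members, Slbp, Npat, Lsm11 and Rbms1. Others were named after their values were seen, as examples or to complete a count or a copy family. The alternatives were DESeq2 1.42.0, limma-voom (limma 3.58.1), RLE size factors, library sizes alone, library sizes without ribosomal RNA genes, no filter, a filter of 1 CPM in 3 samples, unrounded counts, a replicate block, removal of the GC and length trend (loess, span 0.3) or of chromosome medians, each sample left out, and, chosen after seeing the data, edgeR's earlier quasi-likelihood estimate and the sums under each setting.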

Additional observations from a re-analysis of the deposited data

How the results depend on the processing

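At an adjusted p of 0.1, the number of histone genes called lower was 1 and became 3 with DESeq2 and 3 with no filter on low counts. It became 0 with limma-voom, RLE size factors, library sizes alone, the earlier quasi-likelihood estimate, the GC content and length correction and the chromosome median correction. For Hist2h2aa2 the log2 fold change was -0.79 with limma-voom (adjusted p = 0.112), -0.79 with RLE size factors (0.105) and -0.80 with the earlier estimate (0.105), beside -0.80 (0.0967) as reported. It was -0.42 with library sizes alone (0.439), -0.53 with the GC content and length correction (0.208) and -0.66 with chromosome medians removed (0.201). The cause was not tested. Leaving out 1 sample gave 0 to 3 histone genes lower and 0 to 1 higher, and all tested genes went from 12 to 426 lower and 0 to 270 higher, both highest without RBMS1 knockdown replicate 1. The call of Hist2h2aa2 was lost without any of the 3 controls (adjusted p up to 0.342) and without knockdown replicates 2 (0.286) or 3 (0.107), while its log2 fold change stayed between -0.93 and -0.69. Hist1h2al was called without knockdown replicates 1 or 3 (adjusted p 0.0779 and 0.0516) and Hist1h4d without knockdown replicate 1 (0.0627), all by edgeR. Over all tested genes, 104 lower and 36 higher calls became 285 and 145 with DESeq2, 180 and 88 with no filter, 42 and 84 with library sizes alone, 56 and 17 with chromosome medians removed, and 19 higher with limma-voom.

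With library sizes alone the summed histone log2 ratio was -0.074 in place of -0.44, and median log2 fold changes were 0.36 for replacement variants, 0.39 for processing factors, 0.41 for chaperones, 0.16 for S-phase genes, -0.11 for mitosis genes (12 of 18 below 0 in place of 16) and -0.095 for short structural RNAs. With 1 sample left out, the summed histone ratio lay between -0.58 and -0.24, the members' median between -0.57 and 0.05, the S-phase median between -0.43 and 0.07, the mitosis median between -1.37 and 0.20, and the replacement variant median between -0.22 and 0.12. The number of chaperones called went from 0 to 1, which was Asf1b without knockdown replicate 1.

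The replicate numbers showed no clear pairing of the samples. Correlations of deviations were -0.131, 0.0665 and -0.0222 for the 3 numbers, and -0.158 to 0.189 for samples of unlike number. Deviations from means of 3 samples cannot exclude a pairing. With the replicate block, 0 histone genes (Hist2h2aa2 at -0.79) and 33 lower and 6 higher genes in all were called, Hist1h2br had a log2 fold change of -0.36 and Lsm11 0.0059.

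Of the 43 tested histone genes, 14 changed sign with library sizes alone, 9 with the GC content and length correction, 6 with limma-voom, 3 with the replicate block, 3 with chromosome medians removed, 2 with no filter, 1 with DESeq2 and 1 without ribosomal RNA genes, and 0 were called there. Among genes chosen by the naming rule, the sign changed with library sizes alone for H2afv 0.34, Hist1h1c 0.0079, Hist1h1d 0.12, Hist1h2ap 0.14, Hist1h2bc 0.063, Hist1h2bk 0.21, Hist1h4h 0.33, Hist4h4 0.054 and Lsm11 0.31, with the GC content and length correction for H2afv 0.055, H3f3a -0.0019, Hist1h2ap 0.059, Hist1h2bk 0.030, Hist1h4h 0.23 and Slbp -0.012, with chromosome medians removed for H2afj -0.11, H2afv 0.071, H3f3a -0.22, Lsm11 0.070 and Slbp -0.016, with limma-voom for H2afx -0.013, H3f3a -0.0099 and Hist1h2br -0.84, with DESeq2 for Lsm11 0.012, and with no filter for H2afv 0.0013. With 1 sample left out, the range of the log2 fold change crossed 0 in 24 of the 43 tested histone genes, lay below 0 in 16 and above 0 in 3. Among genes chosen by the naming rule, ranges that crossed 0 were -0.46 to 0.46 for Hist1h1d, -0.71 to 0.58 for Hist1h2ap, -0.50 to 0.045 for Hist1h2bk, -0.21 to 3.66 for Hist1h2bq, -0.81 to 1.03 for Hist1h2br, -0.13 to 0.071 for Hist1h4h, -1.29 to 0.55 for Hist2h3c2, -0.17 to 0.28 for H2afj, -0.18 to 0.13 for H2afv, -0.36 to 0.37 for H2afx, -0.066 to 0.39 for H2afz, -0.16 to 0.12 for H3f3a, -0.19 to 0.14 for Lsm11 and -0.17 to 0.33 for Slbp. Ranges that kept their sign but moved by over 1.5 times were -0.47 to -0.13 for Hist1h1c, -0.94 to -0.41 for Hist1h1e, 0.20 to 0.45 for Hist1h2be, 0.35 to 2.10 for Hist1h2bl, -1.02 to -0.42 for Hist1h3e, -1.03 to -0.49 for Hist1h4c, 0.86 to 1.92 for Hist2h2aa1, -1.26 to -0.082 for the coding Hist2h2bb, -2.47 to -0.20 for Hist2h3b, -0.47 to -0.057 for Hist4h4, -2.13 to -0.72 for Cenpa, -0.51 to -0.20 for H1f0, 0.20 to 0.45 for H2afy, -1.29 to -0.47 for H2afy2 and -0.63 to -0.24 for H3f3b. With 1 sample left out, the spread of each gene was estimated from its remaining samples of both groups and drawn towards a trend over all genes.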
